A study of Danio rerio with 2 samples.

Results

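Coarse cluster 5 is a group of 895 cells among 10469 single cells of zebrafish (Danio rerio) tails sorted for GFP from an npas4l reporter. Its members were taken by the cluster number that the authors deposited for each cell. The mutant library gave 631 of them and the heterozygous library 264. The mutant cells came from embryos with the allele pair npas4lbns423/bns297, so that both copies of npas4l were mutant. The heterozygous cells came from npas4lbns423/+ embryos, with 1 mutant and 1 working copy, and no group with 2 working copies was analysed here. All cells came from embryos at 20 hours post fertilisation (hpf), from tails cut off at the front end of the yolk extension and sorted for GFP with dead cells marked by DAPI. The labels give about 150 embryos without saying whether this is per genotype, and each library is thus a pool of embryos. Each genotype was run once, on a droplet lane of its own, so genotype, embryo pool, sort and lane cannot be told apart, and no p-value is given.

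The cloche locus encodes Npas4l, which stands at the top of the hierarchy that turns mesoderm into endothelium and blood in zebrafish. Fish without this transcription factor lose most endothelial and blood cells. A reporter of the gene marks the cells that have switched the locus on; how it was built is not stated in the labels. The tables analysed here hold values per cell and no gene, so no marker could be set against cluster 5. The cluster therefore keeps its number and is given no cell type. Its position was described by the number of transcripts and genes, the share of unspliced transcripts and RNA velocity, which orders cells by comparing newly made, unspliced transcripts with mature, spliced ones.

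Cluster 5 was a single unit at both levels of the authors' clustering. All 631 mutant and all 264 heterozygous cells carried the number 13 among the 15 fine clusters, and fine cluster 13 held no other cell. The 8 coarse clusters ranged in size from 499 to 3207 cells, and cluster 5 was the fifth largest. The libraries shared 5 cell barcodes, and 0 of these belonged to a cell of cluster 5. Neither library had a cell with fewer than 5267 UMIs (unique molecular identifiers, each counting a captured transcript) or 925 genes.

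Cluster 5 took a larger share of the mutant library than of the heterozygous library. With all cells counted, the intervals within bins of UMIs lay apart only at 16000 UMIs or more. Of all cells, 12.0% of the mutant library (exact 95% interval 11.1% to 12.9%) and 5.07% of the heterozygous library (4.49% to 5.70%) were in it, a ratio of 2.37 with bounds of 1.95 and 2.87 from the opposite ends of the intervals. This and all intervals below cover counting error over cells only. Among cells with 8000 to 12000 UMIs, cluster 5 made up 17.8% of mutant cells (239 of 1345) and 15.8% of heterozygous cells (95 of 602). Among cells with 12000 to 16000 UMIs it made up 11.3% of mutant cells (193 of 1713) and 9.71% of heterozygous cells (90 of 927). The ratios in these bins were 1.13 (bounds 0.832 and 1.54) and 1.16 (0.831 and 1.63), so that no difference was detectable with these numbers of cells. Below 8000 UMIs the shares were 23.7% (54 of 228) in mutant and 13.1% (18 of 137) in heterozygous cells, a ratio of 1.80 with bounds of 0.918 and 3.73.

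At higher UMI numbers the shares parted. Between 16000 and 24000 UMIs cluster 5 held 7.35% of mutant cells (6.06% to 8.81%) and 3.12% of heterozygous cells (2.33% to 4.08%). At 24000 UMIs or more it held 7.31% of mutant cells (38 of 520) and 0.524% of heterozygous cells (10 of 1907), a ratio of 13.9 with bounds of 5.43 and 39.3. In that last bin coarse cluster 1 made up 4.42% of the mutant and 92.3% of the heterozygous cells, and the shares of a bin sum to a fixed whole. Between 8000 and 12000 UMIs, cluster 1 made up 1.26% of the mutant and 11.8% of the heterozygous cells. Coarse cluster 4 held 79 heterozygous cells between 8000 and 10000 UMIs and 195 between 10000 and 12000. Outside clusters 1 and 4 lay 1323 of the 1345 mutant and 257 of the 602 heterozygous cells with 8000 to 12000 UMIs. Between 12000 and 16000 UMIs these were 1671 of 1713 and 367 of 927. The shares of cluster 5 in these bins therefore depend on the cells counted.

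**Figure D1:**
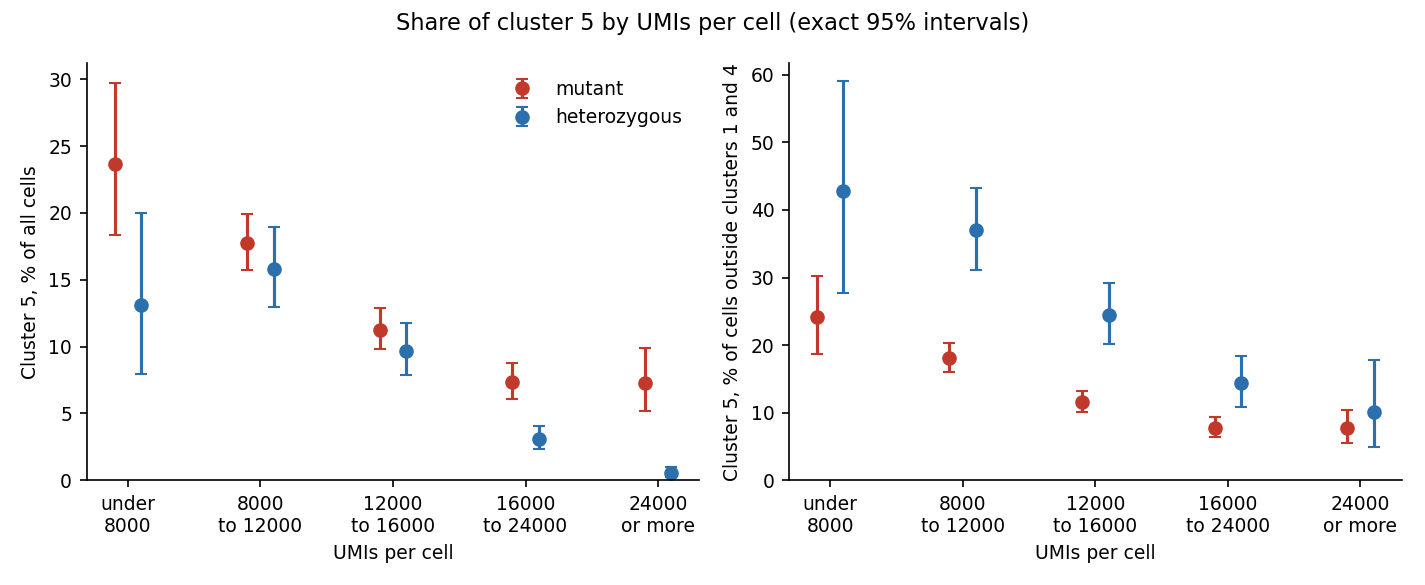
Share of cluster 5 (percent, exact 95% intervals) by UMIs per cell, among all cells (left) and among cells outside coarse clusters 1 and 4 (right), for mutant (red) and heterozygous (blue) cells. Among all cells the shares are close between 8000 and 16000 UMIs and their intervals lie apart from 16000 on, with the highest ratio (13.9) at 24000 or more, at 7.31% of mutant and 0.524% of heterozygous cells; outside clusters 1 and 4 the mutant share is the lower one in every bin.

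The direction between genotypes turned with the cells that were counted. Cluster 1 held 147 mutant and 3060 heterozygous cells, cluster 4 held 23 and 1027, and cluster 6 held 743 and 11. Outside cluster 1 alone, cluster 5 made up 12.3% in each library, with intervals of 11.4% to 13.3% in mutant and 10.9% to 13.8% in heterozygous cells. Outside clusters 1 and 4 it made up 12.4% of mutant (11.5% to 13.3%) and 23.6% of heterozygous cells (21.1% to 26.2%). With cluster 6 left out as well, a choice made after the data had been seen, it made up 14.5% of mutant (13.5% to 15.6%) and 23.8% of heterozygous cells (21.3% to 26.4%). By depth, and outside clusters 1 and 4, cluster 5 held 18.1% of mutant cells (16.0% to 20.2%) and 37.0% of heterozygous cells (31.0% to 43.2%) between 8000 and 12000 UMIs. It held 11.6% of mutant cells (10.1% to 13.2%) and 24.5% of heterozygous cells (20.2% to 29.3%) between 12000 and 16000 UMIs. From 16000 to 24000 UMIs the shares were 7.76% (6.40% to 9.30%) of mutant and 14.4% (10.9% to 18.5%) of heterozygous cells. The intervals overlapped below 8000 UMIs, with 24.1% of mutant and 42.9% of heterozygous cells, and at 24000 UMIs or more, with 7.68% and 10.1%. In both genotypes, then, cluster 5 was a larger part of the shallow cells than of the deep ones.

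The cells of cluster 5 had like numbers of UMIs and genes in both genotypes. Mutant cells had from 5406 to 40729 UMIs with a median of 12353 (11972 to 12762), and heterozygous cells had from 5619 to 53427 with a median of 12550.5 (12025 to 13135). The quartiles were 10141.5 and 15604 UMIs in mutant cells and 10257.5 and 15539 in heterozygous cells. The mutant minus heterozygous difference of the medians was -197.5 UMIs, with bounds of -1163 and 737. Genes per cell had medians of 2999 (2934 to 3050) in mutant and 3029 (2941 to 3118) in heterozygous cells, a difference of -30 with bounds of -184 and 109. Within the cluster genes rose with UMIs almost as 1 curve, with a Spearman rho of 0.969 over the 631 mutant cells and 0.964 over the 264 heterozygous cells. This is a description of cells that share a library, and genes and UMIs come from the same transcripts. Cells with more than 2 times the cluster's median UMIs made up 5.86% of mutant cells (37 of 631, 4.16% to 7.99%) and 3.79% of heterozygous cells (10 of 264, 1.83% to 6.86%). Doublets were not called here, and whether the authors removed doublets is not given in the sources used here.

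Of the 8 measures compared between the genotypes in cluster 5, the mitochondrial share was the only one whose intervals of the median lay apart. The 8 were UMIs, genes, the mitochondrial and unspliced shares, pseudotime, self-transition, and the root cell and end point scores. For pseudotime the difference was -0.00144, and its bounds, -0.00448 and 4.71e-06, only just included 0. Mitochondrial transcripts made up a median of 1.54% of UMIs in mutant cells (1.48% to 1.60%) and 1.27% in heterozygous cells (1.22% to 1.36%). The difference was 0.270 percentage points, with bounds of 0.126 and 0.383. In numbers, the median mutant cell had 200.0 mitochondrial UMIs (190.0 to 211) and the median heterozygous cell 166.5 (155 to 175), a difference of 33.5 with bounds of 15 and 56. The other UMIs did not lie apart, with medians of 12147 in mutant and 12387.5 in heterozygous cells. More than 2% mitochondrial UMIs were found in 27.4% of mutant cells (24.0% to 31.1%) and 12.5% of heterozygous cells (8.76% to 17.1%). The mutant median was also higher in the other coarse clusters with at least 20 cells per library, by 0.0795 (cluster 4) to 0.685 (cluster 1) percentage points, with overlapping intervals in cluster 4, so the direction was not particular to cluster 5. The mitochondrial share is at once a property of cells and a sign of RNA quality. Among cells with at most 2% mitochondrial UMIs, cluster 5 took 13.2% of the mutant and 4.91% of the heterozygous library, a ratio of 2.69. In its cells under that limit the medians were 12756.5 UMIs and 9.90% unspliced in mutant cells and 12928 UMIs and 10.8% unspliced in heterozygous cells.

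**Figure D2:**
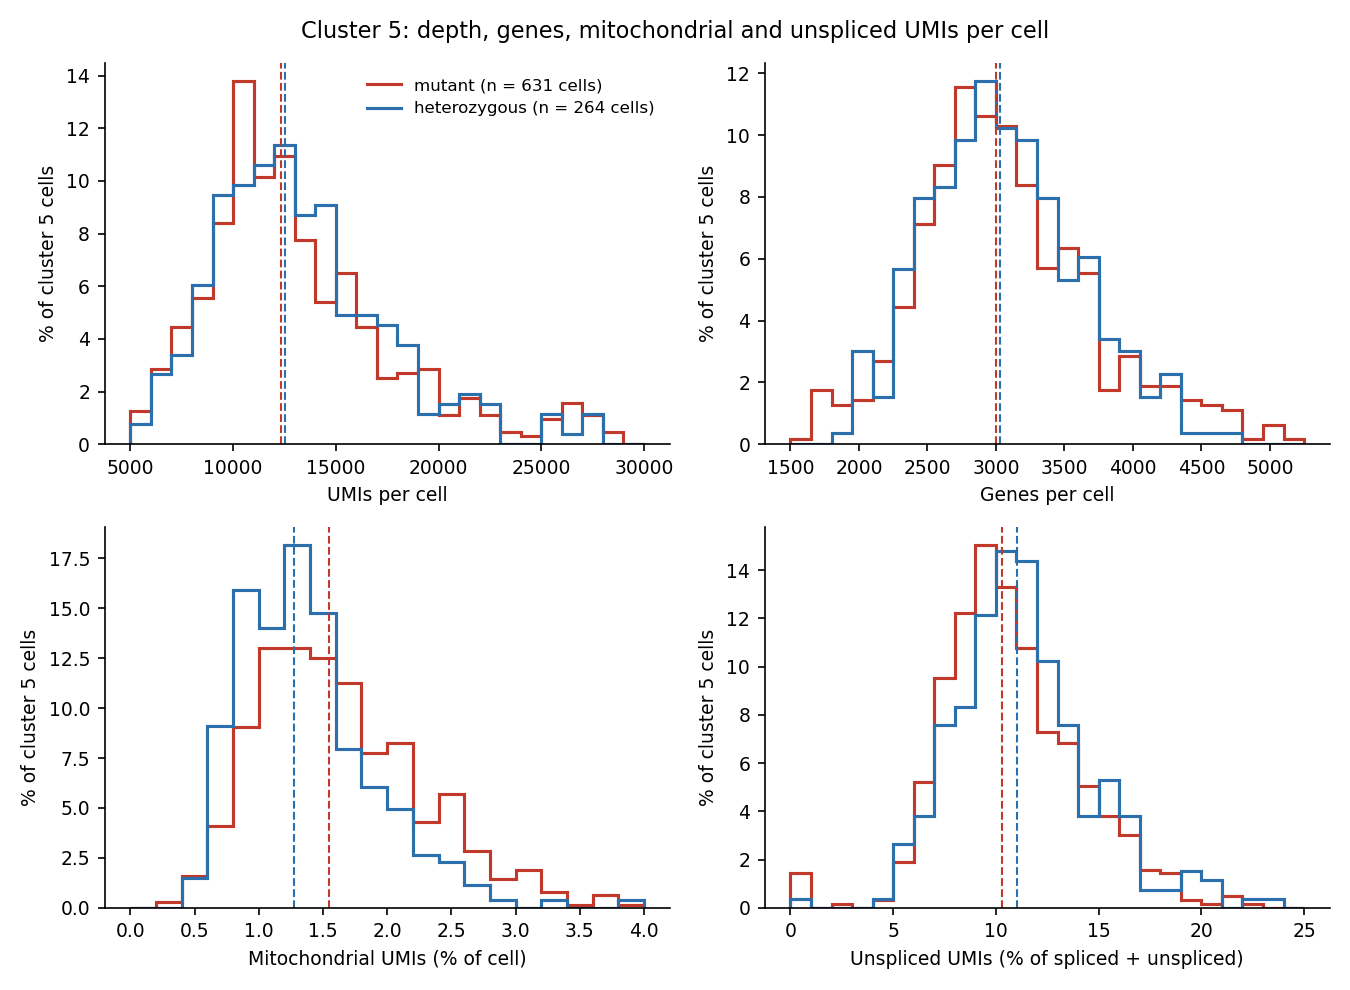
Histograms of cluster 5 cells (percent of the cells of each genotype) by UMIs, genes, mitochondrial UMIs (percent of the cell) and unspliced UMIs (percent of spliced plus unspliced), for mutant (red, n = 631) and heterozygous (blue, n = 264) cells, with dashed lines at the medians; a few cells beyond the axes are not drawn. UMIs and genes overlap, mitochondrial UMIs are shifted upward in mutant cells (medians 1.54% and 1.27%), and a small separate set of cells lies below 3% unspliced.

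Cluster 5 was among the clusters rich in unspliced transcripts. The median cell had 11486 spliced and 1374 unspliced UMIs in the mutant library and 11743 spliced and 1469.5 unspliced UMIs in the heterozygous library. The unspliced share had a median of 10.3% in mutant cells (10.0% to 10.6%) and 11.0% in heterozygous cells (10.6% to 11.5%). The difference was -0.737 percentage points and its bounds, -1.45 and 0.0158, just included 0. As a percent of the total UMIs, the medians were 10.6% and 11.6%, a difference of -0.941 percentage points. No interval was computed for this second measure, so whether its medians lay apart was not tested. The quartiles were 8.55% and 12.7% in mutant cells and 9.20% and 13.0% in heterozygous cells. Cells with a higher mitochondrial share had a somewhat higher unspliced share in both genotypes, with a Spearman rho of 0.294 in mutant and 0.231 in heterozygous cells.

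Placed among the other clusters, cluster 5 had few UMIs and many unspliced transcripts. Its median of UMIs was the second lowest in each library, above cluster 6 in mutant cells (11771, 11569 to 11937) and above cluster 7 in heterozygous cells (12375, 12026 to 13266). The interval of cluster 5 lay apart from that of cluster 6 and overlapped that of cluster 7. Its unspliced median was the second highest in each library, next below cluster 8 (10.4% in mutant and 11.2% in heterozygous cells) and next above cluster 7 (10.2% and 10.4%), with overlapping intervals to both neighbours. In mutant cells with 15000 to 20000 UMIs its median, 9.63%, lay below clusters 6 (9.88%), 7 (9.72%) and 8 (9.74%). In heterozygous cells with 8000 to 10000 UMIs its median, 10.7%, lay below clusters 4 (11.1%) and 7 (11.2%). The intervals overlapped in both cases. In the other bins between 8000 and 20000 UMIs it stayed next below cluster 8. A cluster 5 cell drawn at random had the higher unspliced share than a cell of cluster 7 in 51.3% of mutant and 54.9% of heterozygous pairs, close to the even split of like groups. Against cluster 6 (median 10.2%) it had the higher share in 51.5% of mutant pairs. Cluster 4 had a median of 10.3% in heterozygous cells, so a median near this size was not particular to cluster 5. Against cluster 3 a cluster 5 cell had the higher share in 74.8% of mutant and 80.5% of heterozygous pairs. The clusters were made from the expression of these same cells, so comparisons between clusters are descriptions.

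Genes per cell depend on depth, and at like depth cluster 5 ranked high. Among cells with 12000 to 15000 UMIs its median was 3106 genes (3075 to 3144) in 152 mutant cells and 3122 (3053 to 3179) in 77 heterozygous cells. Cluster 7 had 3146.5 genes (3101 to 3195) in mutant and 3061.5 (2999 to 3153) in heterozygous cells, and these intervals overlapped those of cluster 5. Cluster 8 had 3035 (2985 to 3122) in mutant and 3097 (3026 to 3159) in heterozygous cells. Cluster 4 had 3059.5 (3042 to 3078) in heterozygous cells. These intervals overlapped those of cluster 5 as well. Cluster 6 had 3016 (2973 to 3042) in mutant cells, below the interval of cluster 5. Clusters 3 and 2 lay lower in both libraries, cluster 3 at 2873 in mutant and 2798.5 in heterozygous cells and cluster 2 at 2651 and 2633. Cluster 5 thus spread like numbers of UMIs over more genes than clusters 2 and 3 did. The same order of clusters 5, 3 and 2 was seen in mutant cells with 8000 to 10000 UMIs, where the medians were 2504.5, 2350 and 2092 genes. In mutant cells with 15000 to 20000 UMIs, the interval of cluster 6 overlapped that of cluster 5. The medians there were 3497 (3437 to 3583) and 3576 (3510 to 3630) genes.

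**Figure D3:**
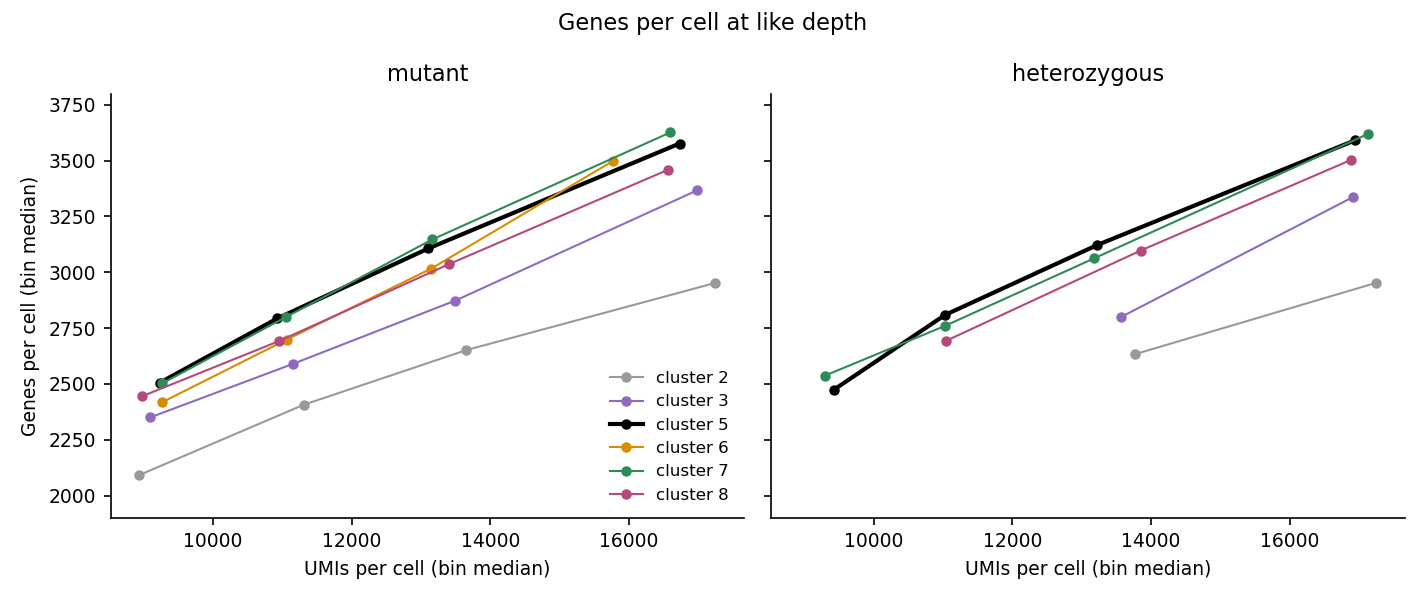
Median genes per cell against median UMIs per cell in 4 bins of UMIs between 8000 and 20000, for mutant (left) and heterozygous (right) cells of 6 coarse clusters; points with fewer than 20 cells are left out. Cluster 5 (black) runs beside cluster 7 and above clusters 3 and 2, with 3106 genes in mutant and 3122 in heterozygous cells at 12000 to 15000 UMIs.

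In RNA velocity, cluster 5 occupied a narrow stretch near 0.5 on the scale of velocity pseudotime. This value from 0 to 1, deposited for each cell, is not a rank: 77.1% of all mutant cells (4058 of 5262) and 90.2% of all heterozygous cells (4696 of 5207) lay below the median of cluster 5 in their own library. It had a median of 0.4995 in mutant cells (0.4989 to 0.4999) and 0.5010 in heterozygous cells (0.4999 to 0.5034), and these intervals overlapped only slightly. The quartiles lay 0.00947 apart in mutant cells and 0.0121 apart in heterozygous cells. A narrow spread was not particular to cluster 5. In cluster 1 the quartiles lay 0.00515 (mutant) and 0.00264 (heterozygous) apart, and in cluster 2 they lay 0.0102 and 0.00952 apart. The next cluster below was cluster 6 in mutant cells (0.463, 0.462 to 0.465) and cluster 3 in heterozygous cells (0.455, 0.452 to 0.457), and the next above was cluster 7 in both (0.5405 in mutant and 0.5437 in heterozygous cells). All of these intervals lay apart from that of cluster 5. Within the central 90% of cluster 5 pseudotime, 77.9% of the mutant cells (567 of 728, 74.7% to 80.9%) and 92.5% of the heterozygous cells (236 of 255, 88.6% to 95.5%) belonged to cluster 5. The remaining mutant cells of that stretch were 64 of cluster 6, 58 of cluster 3, 38 of cluster 7 and 1 of cluster 2. The remaining heterozygous cells were 16 of cluster 7, 2 of cluster 3 and 1 of another cluster. The stretch was set in each library apart. Clusters 3 and 6 held 1447 and 743 cells of the mutant library and 122 and 11 of the heterozygous library. The shares within the stretch therefore depend on the make-up of each library.

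Cluster 5 had the highest self-transition score of all coarse clusters compared, a score for staying in place in the velocity graph rather than moving on to a neighbouring cell. The median reached 0.468 in mutant cells (0.463 to 0.474) and 0.479 in heterozygous cells (0.471 to 0.488), and these intervals overlapped. The next highest were cluster 7 in mutant cells (0.417, 0.408 to 0.425) and cluster 8 in heterozygous cells (0.426, 0.410 to 0.443). A score of at least 0.5 was seen in 30.3% of mutant cells of cluster 5 (191 of 631, 26.7% to 34.0%) and 35.2% of heterozygous ones (93 of 264, 29.5% to 41.3%). Outside cluster 5 it was seen in 7.28% of mutant cells (337 of 4631) and 6.68% of heterozygous cells (330 of 4943). Cluster 8 came closest, with 22.7% of mutant (18.1% to 27.8%) and 24.6% of heterozygous cells (18.7% to 31.3%). Both of these intervals overlapped those of cluster 5. At 12000 to 15000 UMIs the score remained higher in cluster 5, with 0.469 (0.458 to 0.477) in mutant and 0.482 (0.465 to 0.492) in heterozygous cells, against 0.414 (0.396 to 0.438) and 0.378 (0.343 to 0.402) in cluster 7. Cluster 8 had 0.410 (0.400 to 0.432) in mutant and 0.423 (0.403 to 0.448) in heterozygous cells of that depth. At 10000 to 12000 UMIs the intervals of clusters 5 and 8 overlapped, with 0.460 and 0.453 in mutant and 0.471 and 0.433 in heterozygous cells. In heterozygous cells of that depth the interval of cluster 7 (0.395, 0.350 to 0.452) also overlapped that of cluster 5 (0.447 to 0.486). At 8000 to 10000 UMIs the intervals of clusters 5 and 8 overlapped in mutant cells, with 0.467 and 0.423.

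**Figure D4:**
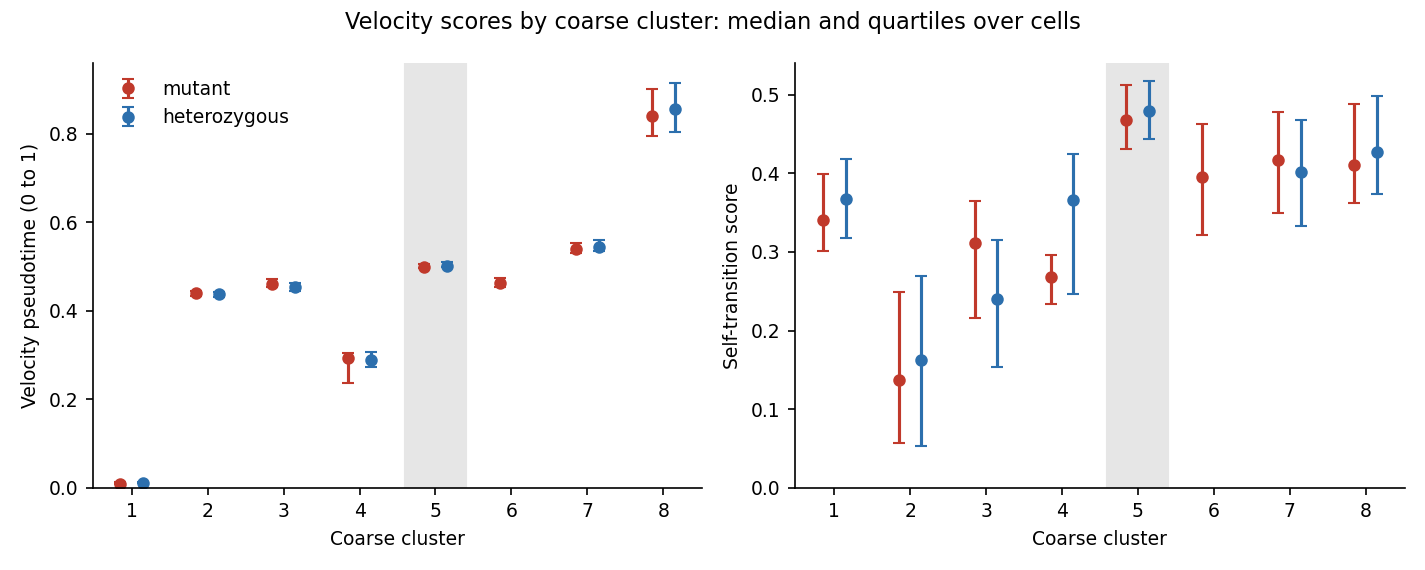
Velocity pseudotime (left) and self-transition score (right) of the 8 coarse clusters, as medians (points) and quartiles (bars) over the mutant (red) and heterozygous (blue) cells; cluster 6 has too few heterozygous cells for a point. Cluster 5 (grey band) sits in a narrow range near 0.5 in pseudotime and has the highest self-transition medians, 0.468 in mutant and 0.479 in heterozygous cells.

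The root cell and end point scores, the authors' measures of the start and end of the trajectory, were seldom near 1 in cluster 5. The root cell score had a median of 0.115 in mutant cells (0.111 to 0.120) and 0.112 in heterozygous cells (0.106 to 0.118). This median was the second highest of 8 clusters in mutant cells, below cluster 4 (0.128, 0.0507 to 0.294) and above cluster 1 (0.0976, 0.0669 to 0.136). It was the highest of 7 in heterozygous cells, above cluster 7 (0.103, 0.0829 to 0.113), and the intervals overlapped those of cluster 5 in each case. The score reached 0.9 in 2 of 631 mutant and 2 of 264 heterozygous cells of cluster 5, and outside it in 82 of 4631 mutant (1.77%, 1.41% to 2.19%) and 171 of 4943 heterozygous cells (3.46%, 2.97% to 4.01%). The end point score had a median of 0.00360 in mutant cells (0.00339 to 0.00378) and 0.00371 in heterozygous cells (0.00341 to 0.00402). No cell of cluster 5 had an end point score of 0.9, which allows a share of up to 0.583% in mutant and 1.39% in heterozygous cells by the exact interval, and the highest value in the cluster was 0.0556. Outside cluster 5 that score was reached by 160 of 4631 mutant and 84 of 4943 heterozygous cells. Cells with a high end point score had a low root cell score, with a Spearman rho of -0.605 in mutant and -0.623 in heterozygous cells. Both scores come from the same velocity graph.

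Along pseudotime, cluster 5 had a peak followed by a shoulder in both genotypes. The peak, between 0.495 and 0.5, held 41.7% of the mutant (37.8% to 45.6%) and 41.7% of the heterozygous cells (35.7% to 47.9%). The genotypes differed on either side of it. Before the peak, from 0.48 to 0.495, lay 11.9% of the mutant cells (75 of 631, 9.46% to 14.7%) and 1.89% of the heterozygous cells (5 of 264, 0.618% to 4.36%). From 0.505 onward lay 29.3% of the mutant cells (185 of 631, 25.8% to 33.0%) and 39.4% of the heterozygous cells (104 of 264, 33.5% to 45.6%). The intervals lay apart on both sides, after the peak only narrowly. Between the peak and 0.505 lay 16.3% of the mutant and 15.9% of the heterozygous cells. As these shares are parts of a fixed whole, the differences before and after the peak are not independent of each other. The intervals of the whole-cluster medians overlapped only slightly. The bounds of these parts in pseudotime were chosen after the distribution had been seen.

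The medians of the cells from 0.505 onward differed from those of the earlier ones in the same direction in both genotypes, though not all intervals lay apart. In mutant cells the later part had a median of 14116 UMIs (13198 to 15438) and the earlier part 11888 (11467 to 12325). In heterozygous cells these were 13587 (12434 to 14811) and 12115 (11573 to 12774), with overlapping intervals. The later part had more genes, with 3283 against 2897 in mutant and 3251.5 against 2912.5 in heterozygous cells, and these intervals lay apart in both. Between 12000 and 18000 UMIs the later part still had more genes, 3349.5 (3268 to 3426) against 3164 (3118 to 3233) in mutant cells and 3340 (3271 to 3445) against 3137.5 (3063 to 3205) in heterozygous cells. In this window the later cells had somewhat more UMIs as well, 14441.5 against 13651 in mutant and 14603 against 13822 in heterozygous cells, so that depth was not fully matched.

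The later part was also richer in unspliced transcripts and had higher self-transition. Its unspliced median was 11.2% (10.6% to 12.2%) against 10.0% (9.73% to 10.3%) in mutant cells and 11.6% (11.2% to 12.8%) against 10.3% (9.94% to 10.8%) in heterozygous cells. Its self-transition median was 0.515 (0.507 to 0.526) against 0.456 (0.451 to 0.461) in mutant cells and 0.522 (0.511 to 0.530) against 0.460 (0.449 to 0.466) in heterozygous cells. Between 12000 and 18000 UMIs the unspliced intervals overlapped in mutant cells, at 10.7% (9.73% to 12.1%) in the later and 9.99% (9.49% to 10.3%) in the earlier part. They lay apart in heterozygous cells, at 11.5% (11.2% to 13.2%) in the later and 10.2% (9.30% to 10.8%) in the earlier part. Self-transition stayed apart in that window, at 0.517 against 0.460 in mutant and 0.524 against 0.462 in heterozygous cells. Self-transition, the end point score and pseudotime are computed from the same velocity graph, and velocity itself compares unspliced with spliced transcripts. The differences in these measures are thus not independent of the division by pseudotime. An end point score of at least 0.008 was seen in 27.0% of the later (50 of 185) and 4.04% of the earlier mutant cells (18 of 446). In heterozygous cells it was seen in 36.5% of the later (38 of 104) and 1.25% of the earlier cells (2 of 160). The score did not increase to the end of the cluster. In mutant cells its median was 0.00682 from 0.505 to 0.51, 0.00518 from 0.51 to 0.515 and 0.00384 from 0.515 to 0.54. In heterozygous cells the medians of these bins were 0.00855, 0.00866 and 0.00394.

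**Figure D5:**
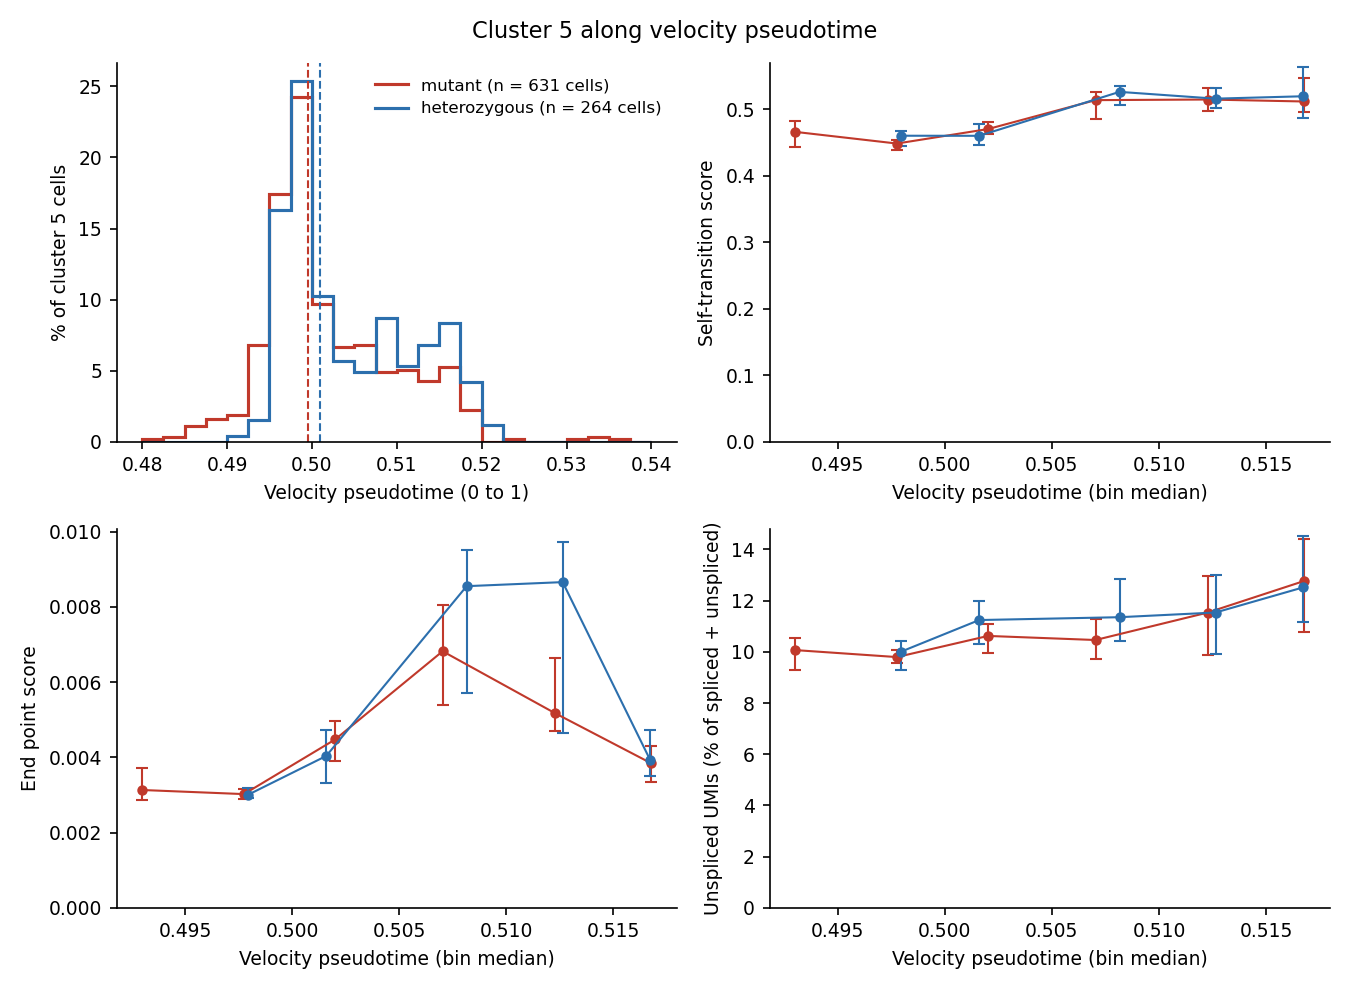
Cluster 5 along velocity pseudotime: histogram of cells (top left, percent of the cells of each genotype, dashed lines at the medians) and, in bins of pseudotime, medians with exact 95% intervals of self-transition, end point score and unspliced share, for mutant (red) and heterozygous (blue) cells; 5 mutant and 3 heterozygous cells lie outside the range drawn. Mutant cells extend further below 0.495, heterozygous cells make up more of the shoulder from 0.505 onward, and self-transition is higher there in both. The median unspliced share is highest from 0.515 to 0.54, at 12.8% in mutant and 12.5% in heterozygous cells. In both genotypes the interval there overlaps that of the bin from 0.51 to 0.515. From 0.505 to 0.51 the unspliced share is 10.5% in mutant and 11.4% in heterozygous cells, near the 10.6% and 11.2% of the bin before.

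The mitochondrial median was higher and the unspliced median lower in mutant than in heterozygous cells, within the later and within the earlier part. The mitochondrial median was 1.53% (1.35% to 1.66%) in mutant and 1.22% (1.09% to 1.32%) in heterozygous cells of the later part. It was 1.57% (1.49% to 1.63%) in mutant and 1.32% (1.24% to 1.46%) in heterozygous cells of the earlier part, and the intervals lay apart in both parts. The unspliced medians given above differed by less than the width of the intervals. For UMIs and genes the mutant median was the higher one in the later part and the lower one in the earlier part, with overlapping intervals between the genotypes in each. The mitochondrial medians of the earlier and later parts overlapped within each genotype.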

How the data were processed

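Per the submitters' processing notes, STARsolo, Scanpy and the zebrafish build danRer11 were used; of versions, annotation, cell filters, doublet treatment, clustering settings and the velocity tool nothing is stated in the sources used here. The authors deposited genes per cell as counts, total UMIs plus 1 as a natural log, mitochondrial UMIs as percent, and velocity scores, per the file headers. The headers do not state whether the velocity scores were computed over both libraries together. Spliced and unspliced sizes are whole numbers and are read as UMIs. In cluster 5 their sum came to 104% of the total UMIs in the median mutant cell and 105% in the median heterozygous cell. The intervals of these medians lay apart, with a difference of -0.967 percentage points and bounds of -1.93 and -0.244. Totals were recovered by inverting the log, within 0.0614 of a whole number, and mitochondrial UMIs from the percent. A column of normalized counts, 1 in all, was not used. Genotype was read from each cell's row.

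Shares have exact Clopper-Pearson intervals and medians exact order-statistic intervals (95%), computed with Python 3.11.15, pandas 2.3.3 and scipy 1.17.1, and the interval of medians was tested on simulated data. Bounds of differences and ratios combine opposite ends of the intervals. Medians call for at least 20 cells in a library, except those of the 10 mutant cells under 3% unspliced, which have no intervals. With 1 library per genotype no test was run. The clusters named are the neighbours of cluster 5 in each order and those that set an end of a range. Beyond this rule, clusters 1, 4 and 6 were named for shares, and clusters 2, 3, 4, 6, 7 and 8 for genes at like depth. Clusters 3, 4 and 6 were named for the unspliced share, clusters 7 and 8 for self-transition, and clusters 1 and 2 for pseudotime spread. Cluster 5 and all divisions were chosen with earlier results of these data known.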

Additional observations from a re-analysis of the deposited data

How the results depend on the processing

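Each genotype had 1 library, so no library could be left out; heterozygous values rest on 264 cells and mutant values on 631, at like UMIs per cell. The ratio of shares, 2.37, was 1.003 outside cluster 1, 0.526 (reversed) outside clusters 1 and 4 and 0.609 (reversed) outside clusters 1, 4 and 6, all by the change of denominator, and 3.39 in cells with at least 3000 genes, where the cause was not tested; under the other 4 alternatives it stayed within its bounds. The first table, which holds the same cells, could not move a value. It is nevertheless 1 of these 4 alternatives, and its UMIs, genes and mitochondrial share are in the next count as well. Of the genotype differences, 50 of 52 alternative values stayed within the bounds of the main values. The unspliced share of total UMIs is among them, set against the bounds of the share of spliced plus unspliced UMIs. The mitochondrial difference was 0.118 with at most 2% mitochondrial UMIs, a limit on the measure itself. The pseudotime difference was 0.000216 with means and -0.00243 with means without the 8 cells outside 0.48 to 0.54, an alternative chosen after seeing the data, as were leaving out cells under 3% unspliced and leaving out cluster 6. The number of other clusters with a median below that of cluster 5 stayed within 1.5 times in 38 of 48 cases. With 12000 to 18000 UMIs it was 2 for UMIs, against 1, in mutant and in heterozygous cells, and 1 for mitochondrial share, against 2, in both. For genes it was 5, against 2, in mutant cells and 6, against 3, in heterozygous cells, out of 6 compared. With means it was 1 for mitochondrial share, against 2, 3 for root cell score, against 6, and 1 for end point score, against 3, all in mutant cells, and 0 for UMIs, against 1, in heterozygous cells; the causes were not tested. No paired analysis was possible because each genotype had 1 library.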

Other observations

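A small set of cluster 5 cells had almost no unspliced transcripts. Under 3% unspliced lay 10 of 631 mutant cells (1.58%, 0.763% to 2.90%) and 1 of 264 heterozygous cells (0.379%, 0.00959% to 2.09%), and these intervals overlapped. In the mutant cells the unspliced share ran from 0.604% to 2.71% with a median of 0.697%, or 43.5 unspliced UMIs, while the lowest of the other 621 mutant cells had 4.04%. These 10 cells were shallow, with 5406 to 7696 UMIs and 1630 to 1977 genes. Their median was 1776.5 genes, against 2095 genes in the 35 other mutant cells of at most that depth, which had a median of 11.8% unspliced. Mitochondrial shares were 0.916% in the 10 cells and 1.70% in the 35 cells (medians). Their pseudotime, 0.485 to 0.506, lay within the range of the cluster. The heterozygous cell had 48 unspliced UMIs, 9989 UMIs and 2083 genes. Outside cluster 5, cells under 3% unspliced made up 0.648% of mutant cells (30 of 4631) and 2.47% of heterozygous cells (122 of 4943), of which 93 were in cluster 1. In cluster 8 they made up 1.64% of mutant (5 of 304) and 3.08% of heterozygous cells (6 of 195). Such cells were thus not particular to cluster 5. Cluster 7 had 0.602% of mutant (3 of 498) and 1.08% of heterozygous cells (2 of 185), and cluster 6 had 0 of 743 mutant cells.

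Outside pseudotime 0.48 to 0.54 lay 5 mutant and 3 heterozygous cells of cluster 5. The heterozygous cell furthest from the rest had a pseudotime of 0.0268, a root cell score of 1, a self-transition of 0.113 and 53427 UMIs, the most in the cluster. Another heterozygous cell had a pseudotime of 0.197, a root cell score of 0.977 and 22058 UMIs. The lowest mutant values were 0.385, in a cell with a root cell score of 1 and 12545 UMIs, and 0.443, in a cell with 0.905 and 27882 UMIs. No other cell of cluster 5 had a root cell score of at least 0.9. The 11 cells at 0.5 or more were 8 mutant (1.27%, 0.549% to 2.48%) and 3 heterozygous (1.14%, 0.235% to 3.28%).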
